A study of Mus musculus with 72 samples.

Results

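Whole blood of low-lead mice was compared between the end of a recovery on plain water and the end of the lead exposure that preceded it. The members were the 15 low-lead recovery arrays and the 15 low-lead exposure arrays, chosen by their sample titles, 30 of the 72 arrays of the study. All genes with a probe set of exactly 1 gene symbol were eligible, which left 12588 tested genes of 18193 after dim probe sets were removed.

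All animals were female Balb/c mice, labelled 9 weeks old on every array, recovery arrays included. The recovery group drank lead-free water for 2 weeks after 2 weeks of lead acetate trihydrate at 5 µg/mL in the drinking water. The exposure group was bled at the end of those 2 weeks of lead. For comparison, the same pair of collections was available from 13 recovery and 15 exposure arrays of mice given 50 µg/mL (high lead), and from 7 recovery and 7 exposure arrays of control mice given 0 µg/mL. Blood was taken by submandibular bleed into RNA stabiliser, globin transcripts were depleted, and biotin-labelled RNA was hybridised to mouse oligonucleotide arrays. The labels state that all 15 low-lead mice were bled at both collections, but not that equal replicate numbers mark 1 mouse. At each collection 7 control mice were bled, and the labels do not say whether the same mice gave both samples. Age, the number of earlier bleeds and the end of lead exposure therefore cannot be told apart within the low-lead mice, and p-values measure the spread between samples.

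Whole-blood RNA is a mixture. Reticulocytes, the young red cells that still hold RNA, contribute erythroid transcripts, and leukocytes and platelets contribute the rest. Lead binds to thiol groups and takes the place of zinc and calcium in proteins, and it is known to inhibit enzymes of heme synthesis and the pyrimidine nucleotidase of red cells. Immediate early genes, such as Fos, are transcribed within minutes of a stimulus without new protein synthesis. In such bulk samples, fewer cells of a type and less RNA per cell cannot be told apart.

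Promoter sequences are shown for 4 genes that fell between the collections and whose upstream bases hold a motif of the pathway to which the gene belongs. Each is the 250 bases before the gene start in RefSeq (GRCm38.p6), written 5′ to 3′ on the gene's strand, with the match in capitals. The capitals mark the heat shock element GAANNTTC in the promoter of Hspa1b, an inducible Hsp70 chaperone. They mark the cyclic AMP response element TGACGTCA in that of Dusp1, a phosphatase that switches off MAP kinases. In the promoters of Epb42, a red cell membrane skeleton protein, and Trim10, an erythroid RING finger protein, they mark a GATA site (AGATAA, here read on the opposite strand as TTATCT).
Hspa1b (chr17:34959239-34959488, minus strand): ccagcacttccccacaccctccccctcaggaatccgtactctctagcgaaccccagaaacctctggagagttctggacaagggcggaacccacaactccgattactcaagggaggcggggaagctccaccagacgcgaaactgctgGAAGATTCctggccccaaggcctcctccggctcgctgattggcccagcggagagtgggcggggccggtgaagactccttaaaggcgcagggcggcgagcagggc
Dusp1 (chr17:26508473-26508722, minus strand): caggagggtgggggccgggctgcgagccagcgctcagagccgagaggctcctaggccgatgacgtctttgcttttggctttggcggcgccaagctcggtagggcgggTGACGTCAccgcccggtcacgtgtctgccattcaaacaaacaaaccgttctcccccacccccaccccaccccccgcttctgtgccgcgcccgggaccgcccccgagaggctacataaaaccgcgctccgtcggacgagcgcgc
Epb42 (chr2:121036878-121037127, minus strand): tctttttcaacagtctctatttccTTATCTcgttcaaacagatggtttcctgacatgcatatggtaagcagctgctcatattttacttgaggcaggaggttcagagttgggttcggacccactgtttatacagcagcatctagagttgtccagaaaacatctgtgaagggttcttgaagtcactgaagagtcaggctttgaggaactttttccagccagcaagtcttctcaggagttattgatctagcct
Trim10 (chr17:36869324-36869573, plus strand): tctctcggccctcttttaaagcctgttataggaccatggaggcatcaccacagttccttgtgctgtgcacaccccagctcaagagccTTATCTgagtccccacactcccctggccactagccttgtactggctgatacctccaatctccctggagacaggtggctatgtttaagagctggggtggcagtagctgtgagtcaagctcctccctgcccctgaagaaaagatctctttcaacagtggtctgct

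Both strands were searched, in the 10135 tested genes that had such a sequence. A gene counted if any of its promoter sequences held a match. GAANNTTC was present in 7 of 21 heat shock genes (33.3%) and in 6.07% of all genes searched, AGATAA in 8 of 23 erythroid genes (34.8%) and in 7.5% of all, and TGACGTCA in 3 of 25 immediate early genes (12%) and in 2.81% of all. Motifs of other pathways were also above the share of all genes in some lists. GAANNTTC was present in 3 of 25 immediate early genes (12%) and 3 of 23 erythroid genes (13%). The E-box CACGTG was present in 5 of 25 immediate early genes (20%) and in 9.72% of all. For the other pairs of these lists and motifs the share was near or under that of all genes. A match describes the letters only. No match to TGACGTCA was found in the same window of Fos, Zfp36 or Junb, and none to AGATAA in that of Gata1. GAANNTTC was absent from the window of Hsph1, Dnajb1, Chordc1, Stip1 and Slc5a3, and present in 1 promoter sequence of Dnaja1 and 1 of Hspd1.

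The arrays resembled each other closely, with correlations over probe sets between 0.958 and 0.995 and 0 identical pairs. The median correlation was 0.992 between arrays within the 2 low-lead groups and 0.988 between low-lead arrays of different collections. Low-lead recovery replicate 4 stood apart by its spread of relative log expression (interquartile range 0.492, above a limit of 0.433), as did high-lead exposure replicate 13 (0.472). The poly(A) spike controls were at 13.00 to 13.17 in low-lead exposure replicates 8 and 12 and low-lead recovery replicate 8. In high-lead exposure replicates 9, 10 and 12 they were at 12.97 to 13.12. In every other array these controls were at 7.86 to 9.27. Control probe sets for RNA integrity moved with the collection. The 3′ minus 5′ difference of Gapdh was 0.93 ± 0.11 on the log2 scale in low-lead recovery arrays and 0.53 ± 0.13 in low-lead exposure arrays (SD, n = 15 each), and that of Actb was 0.67 ± 0.10 in recovery and 0.44 ± 0.07 in exposure arrays (permutation test, two-sided, adjusted p = 7e-05 for each over 7 array measures, with 2e-05 the smallest p the resamples can give). The 18S ribosomal RNA signal was 6.33 ± 0.31 in recovery arrays and 7.00 ± 0.86 in exposure arrays (permutation test, adjusted p = 0.0162). These shifts run alongside every result below, and had the same direction in control and high-lead mice. Calls were also made with the 3′ minus 5′ differences as covariates, an alternative chosen after these values were seen. Of 191 genes examined singly, 161 were called, and 20 of these lost the call with those covariates and 36 with means of 6 cell marker lists as covariates, lists to which some of the genes belong. Gains were 6 and 3 genes.

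Between recovery and exposure, 5551 of the 12588 genes (44.1%) differed in low-lead blood, 3300 (26.2%) higher and 2251 (17.9%) lower (limma, Benjamini-Hochberg adjusted p under 0.05). Most differences were small. The median absolute log2 difference over all genes was 0.14, the median difference was 0.00, and 345 of the called genes differed at least 1.5-fold, 135 of them higher and 210 lower. That count was 135 with cell marker means as covariates and 660 when the probe set of largest interquartile range represented each gene. Without adjustment 6408 genes had a p under 0.05. For 56 genes (0.445%) the recovery and exposure arrays did not overlap at all, 40 higher (0.318%) and 16 lower (0.127%). The split of the calls depended on scaling, with 59.4% of called genes higher in the deposited values, 50.3% after quantile normalization, 47.6% after cyclic loess and 64.1% after centring each array on its median. Expression also varied more between arrays after recovery. The SD was larger in the recovery group for 9127 genes (72.5%, or 67.9% without recovery replicate 4). The median SD was 0.20 in the recovery group and 0.16 in the exposure group. Within single low-lead arrays, relative log expression was also more widely spread after recovery. Its interquartile range averaged 0.298 ± 0.078 in recovery arrays and 0.250 ± 0.028 in exposure arrays (SD, permutation test, adjusted p = 0.0482). In control mice the averages were 0.298 in recovery and 0.292 in exposure arrays. In high-lead mice the order was reversed, with 0.269 in recovery and 0.316 in exposure arrays. Whether the larger SD came from the mice or from array quality was not tested.

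Immediate early genes were lower after recovery, and Fos, a subunit of the AP-1 transcription factor, fell the most of all genes named. In recovery arrays Fos had a lowest log2 signal of 5.60, a median of 6.33 and a highest of 7.72, against 7.79, 8.20 and 8.47 in exposure arrays. The groups did not overlap in any of the 15 recovery arrays. The fold change was 0.298 (log2 difference -1.75 ± 0.14 SE, limma adjusted p = 2.79e-15). Dusp1 had 7.18, 8.17 and 9.13 in recovery arrays as lowest, median and highest, against 8.87, 9.37 and 9.93 in exposure arrays. Its groups overlapped through a single recovery array, and it fell by 1.26 ± 0.12 (limma adjusted p = 2.35e-12). Zfp36l2, an RNA-binding protein that promotes mRNA decay, lay between 8.75 and 9.87 in recovery arrays and between 9.94 and 10.63 in exposure arrays, with no overlap (-0.88 ± 0.10, limma adjusted p = 3.41e-10). Klf6, a zinc finger transcription factor, fell by 0.56, and Cxcr4, a chemokine receptor that retains leukocytes in the bone marrow, by 0.64 (limma adjusted p = 6.27e-10 and 2.86e-05). The call for Cxcr4 was lost with the 3′ minus 5′ covariates (limma adjusted p = 0.0696).

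Of 32 immediate early genes tested, 0 were higher and 16 (50%) were lower, against 26.2% higher and 17.9% lower among all genes, with a median log2 difference of -0.16 against 0.00. The members that did not pass included Egr1 (0.04), Nr4a1 (-0.10) and Ier2 (-0.05), which are also textbook immediate early genes. In control mice 3 members were higher and 8 lower (background 22.5% and 13.6%), with a median of -0.10. In high-lead mice 0 were higher and 15 lower (background 29.3% and 19.8%), with a median of -0.15. The change of Fos was -0.66 in control mice and -1.26 in high-lead mice. Its difference between low-lead and control mice, -1.09 ± 0.25, did not pass the threshold (limma interaction, adjusted p = 0.0576). It passed in 4 of the alternatives, with quantile normalization, a stricter filter (above 6 in at least 15 arrays), array weights and the 3′ minus 5′ covariates (limma adjusted p = 0.0494, 0.0364, 0.0174 and 0.0493), and in the others, single arrays left out aside, the adjusted p ran up to 0.357, with cell marker means.

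Genes that glucocorticoids induce, a list that shares Dusp1 and Cxcr4 with the previous one, were also lower. Of 21 tested, 0 were higher and 9 (42.9%) were lower, against 26.2% higher and 17.9% lower among all genes, with a median of -0.13. In control mice 1 was higher and 2 lower (background 22.5% and 13.6%), with a median of -0.04. In high-lead mice 0 were higher and 10 lower (background 29.3% and 19.8%), with a median of -0.16. Sgk1, a kinase that regulates ion transport, fell by 0.50 ± 0.09 (limma adjusted p = 2.47e-06) and Tsc22d3, the anti-inflammatory leucine zipper protein GILZ, fell by 0.40 ± 0.09 (limma adjusted p = 8.78e-05). With the 3′ minus 5′ covariates 3 members were lower, and Tsc22d3 was no longer called (limma adjusted p = 0.233). Per1, a clock gene that glucocorticoids also induce, did not pass (0.13 ± 0.06, limma adjusted p = 0.0844). It passed with the 3′ minus 5′ covariates, at 0.22 (limma adjusted p = 0.0411), and with array weights (limma adjusted p = 0.0234).

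**Figure D1:**
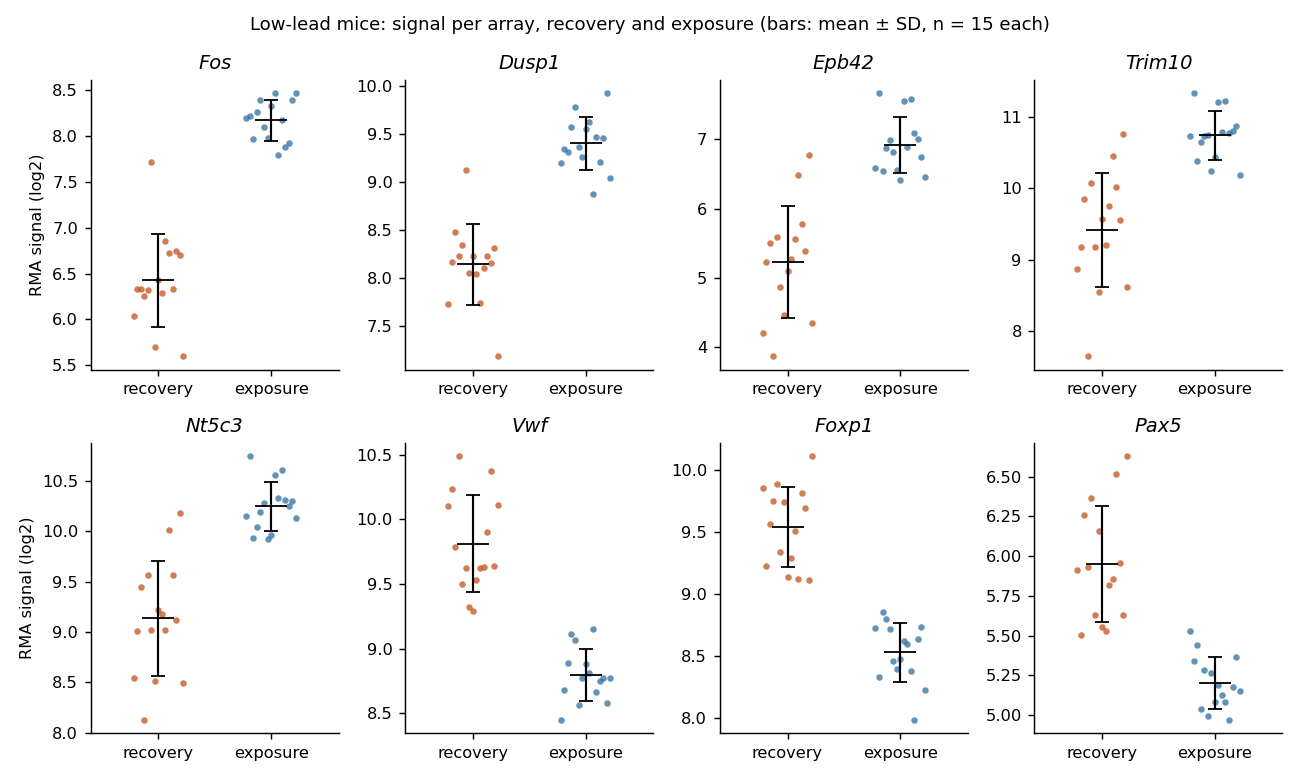
RMA signal on a log2 scale for 8 genes in each low-lead array, recovery on the left of exposure, with the mean and SD of 15 arrays a group. Fos, Vwf and Foxp1 show no overlap between the groups, while 1 recovery array of Dusp1 and of Pax5 reaches into the exposure range, and Epb42, Trim10 and Nt5c3 are lower and more widely spread after recovery.

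Erythroid transcripts were lower after recovery. Of 34 reticulocyte and erythroid genes, 0 were higher and 25 (73.5%) were lower, against 26.2% and 17.9% of all genes, with a median log2 difference of -0.47. Epb42, which links the band 3 anion exchanger to the membrane skeleton, had a lowest, median and highest signal of 3.87, 5.28 and 6.77 in recovery arrays, against 6.41, 6.88 and 7.67 in exposure arrays. Of the 15 recovery arrays 13 lay below every exposure array, and the fold change was 0.310 (-1.69 ± 0.23, limma adjusted p = 1e-08). Trim10 had 7.65, 9.56 and 10.76 in recovery arrays, against 10.19, 10.75 and 11.33 in exposure arrays, so the groups overlapped in 2 recovery arrays (-1.32 ± 0.21, limma adjusted p = 5.31e-07). The carbonic anhydrases of red cells, which hydrate carbon dioxide, fell as well, Car2 by 1.14 ± 0.18 and Car1 by 0.79 ± 0.11 (limma adjusted p = 2.95e-07 and 5.45e-08). So did Lmo2, a bridging subunit of the erythroid GATA1 and TAL1 complex (-0.71 ± 0.11, limma adjusted p = 3.77e-07, or 0.0535 with cell marker means as covariates). The transcription factor genes themselves were near 0: Gata1 gave -0.09 and Tal1 0.08, neither past the threshold.

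The mean erythroid level of an array, relative to the mean of all 72 arrays, ran from -1.01 to 0.24 in recovery arrays with a median of -0.25, against -0.07 to 0.40 with a median of 0.15 in exposure arrays. The lowest value was that of recovery replicate 4, the array that stands apart. Without it and high-lead exposure replicate 13, 24 erythroid genes were lower and 0 higher. With the 3′ minus 5′ covariates 19 were lower and 1 higher. In control mice 21 members were lower and 0 higher (background 13.6% and 22.5%) with a median of -0.55. In high-lead mice 22 were lower and 0 higher (background 19.8% and 29.3%) with a median of -0.37.

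Of the 12 genes with the largest decreases, Fos and Dusp1 were immediate early genes and Epb42 and Trim10 erythroid genes, and the others stood in neither list. Yipf4, a Golgi membrane protein, lay between 7.34 and 9.06 in recovery arrays and between 9.09 and 9.91 in exposure arrays, with no overlap (-1.39 ± 0.16, limma adjusted p = 8.92e-11). A dimmer probe set of Yipf4 went the same way (-1.11) and another the opposite way (0.25). Diaph3, a formin that nucleates actin, fell by 1.27, Cd36, a fatty acid and thrombospondin receptor of platelets, monocytes and erythroid cells, by 1.23, and Esco2, a cohesin acetyltransferase of S phase, by 1.23. Chac2 (-1.23), a glutathione-degrading enzyme, Atg4a (-1.22), a protease of autophagosome formation, Map4k5 (-1.22), a stress kinase, and Tceal8 (-1.15) followed. Each of these 7 had a limma adjusted p of 1.3e-06 or less, and in 12 or 13 of 15 recovery arrays the signal lay below every exposure array. Esco2 and Map4k5 were dim, with medians of 2.94 and 4.14 in recovery arrays, near or under the filter level of 4.14. With means of the cell marker lists as covariates Atg4a was no longer called (limma adjusted p = 0.0676). Of 16 ubiquitin ligases and autophagy genes of red cell maturation, 10 (62.5%) were lower and 1 (6.25%) higher, against 17.9% and 26.2% of all genes, with a median of -0.25. Gabarapl2, a protein of autophagosome membranes, fell by 0.52, and Fbxo7, a ubiquitin ligase subunit, by 0.72. With cell marker means as covariates 2 of the list were lower and 4 higher, and neither gene was called. The exception was Map1lc3a, the LC3 autophagosome protein, which rose by 0.29 ± 0.04 with no overlap between its groups (limma adjusted p = 7.87e-08). Another probe set of Map1lc3a past the filter gave 0.10 (limma unadjusted p = 0.116).

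Heme and globin genes showed smaller changes. Of 13 heme synthesis genes, 0 were higher and 4 (30.8%) lower, against 26.2% and 17.9% of all genes, with a median of -0.09. With cell marker means as covariates 2 were higher and 2 lower. The 4 were Abcb10 (-0.54), a mitochondrial transporter of erythroid cells, Urod (-0.53) and Uros (-0.14), enzymes that make uroporphyrinogen and convert it to coproporphyrinogen, and Slc25a38 (-0.28), the mitochondrial glycine carrier. The calls of Urod, Uros and Slc25a38 were lost with cell marker means as covariates, and that of Uros also with the 3′ minus 5′ covariates (limma adjusted p = 0.102). Alad, the zinc enzyme that lead inhibits, had a lowest, median and highest signal of 7.46, 7.92 and 8.13 in recovery arrays, against 7.61, 8.01 and 8.36 in exposure arrays. These groups overlapped for most arrays, and the difference did not pass (-0.17 ± 0.11, limma adjusted p = 0.191). With means of the cell marker lists as covariates it turned to 0.31 (limma adjusted p = 0.00319). Alas2, the first enzyme of the pathway in erythroid cells, was at 13.81 in the median recovery array and 13.80 in the median exposure array (0.02 ± 0.03, limma adjusted p = 0.58). Fech, which inserts iron into protoporphyrin, gave 0.01 ± 0.03 at a median of 13.52 in recovery arrays and 13.53 in exposure arrays (limma adjusted p = 0.739). Both lie close to the highest value deposited, 14.14. A dimmer probe set of Fech was lower after recovery, by -0.81 ± 0.13 (limma adjusted p = 2.78e-07 when it represented the gene). Of 5 globin genes, whose RNA had been depleted, 3 (60%) were lower and 0 higher. Of these the embryonic Hbb-y fell by 0.57 and Hba-a2 by 0.46, calls that were lost with cell marker means as covariates.

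Nt5c3, the pyrimidine nucleotidase that clears nucleotides in maturing red cells and that lead inhibits, was lower after recovery. Its lowest, median and highest signals were 8.13, 9.12 and 10.18 in recovery arrays, against 9.92, 10.25 and 10.74 in exposure arrays. In 13 of 15 recovery arrays it lay below every exposure array (fold change 0.462, -1.11 ± 0.15, limma adjusted p = 2.05e-08). It fell as well in control mice (-0.90, limma adjusted p = 0.00111) and in high-lead mice (-0.83, limma adjusted p = 1.45e-05). Among the 13 proteins listed as lead targets, 6 (46.2%) were higher and Nt5c3 alone was lower (7.69%), against 26.2% and 17.9% of all genes, with a median of 0.17. Those that rose were calcium-dependent proteins, among them Itpr2 (0.57), the inositol trisphosphate receptor of calcium stores, Camk2d (0.49), a calcium- and calmodulin-dependent kinase, and Atp2a3 (0.46), a calcium pump of platelets and leukocytes. Probe sets of these 3 genes disagreed. The other Atp2a3 probe set past the filter was lower, by -0.23. Of 3 others of Itpr2, 2 were higher (0.35 and 0.21) and 1 lower (-0.20), and the 2 of Camk2d gave 0.23 and -0.05, the last with an unadjusted limma p of 0.552. The list gave 5 higher and 2 lower in control mice (background 22.5% and 13.6%), with a median of 0.17.

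Of 20 iron genes, 8 (40%) were lower and 3 (15%) higher, against 17.9% and 26.2% of all genes. Ireb2, an iron regulatory protein, fell by 0.64 ± 0.09 (limma adjusted p = 6.89e-09), as did Iscu (-0.53) and Nfs1 (-0.52), which assemble iron-sulfur clusters and lost their calls with cell marker means as covariates (limma adjusted p = 0.18 and 0.216). Tfrc, the transferrin receptor that loads iron into erythroid cells, fell by 0.78 ± 0.23 (limma adjusted p = 0.00412). Its call was lost with the 3′ minus 5′ covariates (limma adjusted p = 0.0918) and with cell marker means as covariates (limma adjusted p = 0.759). Hmox2, the constitutive heme oxygenase, rose by 0.37 ± 0.06 (limma adjusted p = 1.53e-06). Metallothioneins, which bind zinc and lead, gave no call for Mt1 (-0.13 ± 0.07, limma adjusted p = 0.12) or Mt2 (0.00 ± 0.09, limma adjusted p = 0.987). Mt1 was called lower with the 3′ minus 5′ covariates, at -0.28 (limma adjusted p = 0.0101). Mtf1, the zinc-sensing factor that activates their genes, was higher in every recovery array than in any exposure array, by a small amount (6.74 to 7.14 against 6.27 to 6.73, 0.34 ± 0.05, limma adjusted p = 3.62e-08). Its 2 dimmer probe sets past the filter gave -0.07 and -0.05, neither with an unadjusted limma p under 0.05. Of the 16 metallothionein and zinc transport genes, 2 were higher and 2 lower, 12.5% each and below both shares of all genes.

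Of 23 antioxidant genes, 12 (52.2%) were lower and 5 (21.7%) higher, against 17.9% and 26.2% of all genes, with a median of -0.16. The lower count was 6 with the 3′ minus 5′ covariates and 3, beside 4 higher, with cell marker means. Cat, the catalase that breaks down hydrogen peroxide, fell by 0.58 ± 0.10 and Prdx2, a red cell peroxiredoxin, by 0.41 ± 0.07 (limma adjusted p = 4.22e-06 and 4.38e-06). Both calls were lost with cell marker means as covariates (limma adjusted p = 0.209 and 0.336). Keap1, the repressor of Nrf2, rose by 0.36, although its dimmer probe set gave -0.17, and Gstp1, a glutathione transferase, by 0.33.

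**Figure D2:**
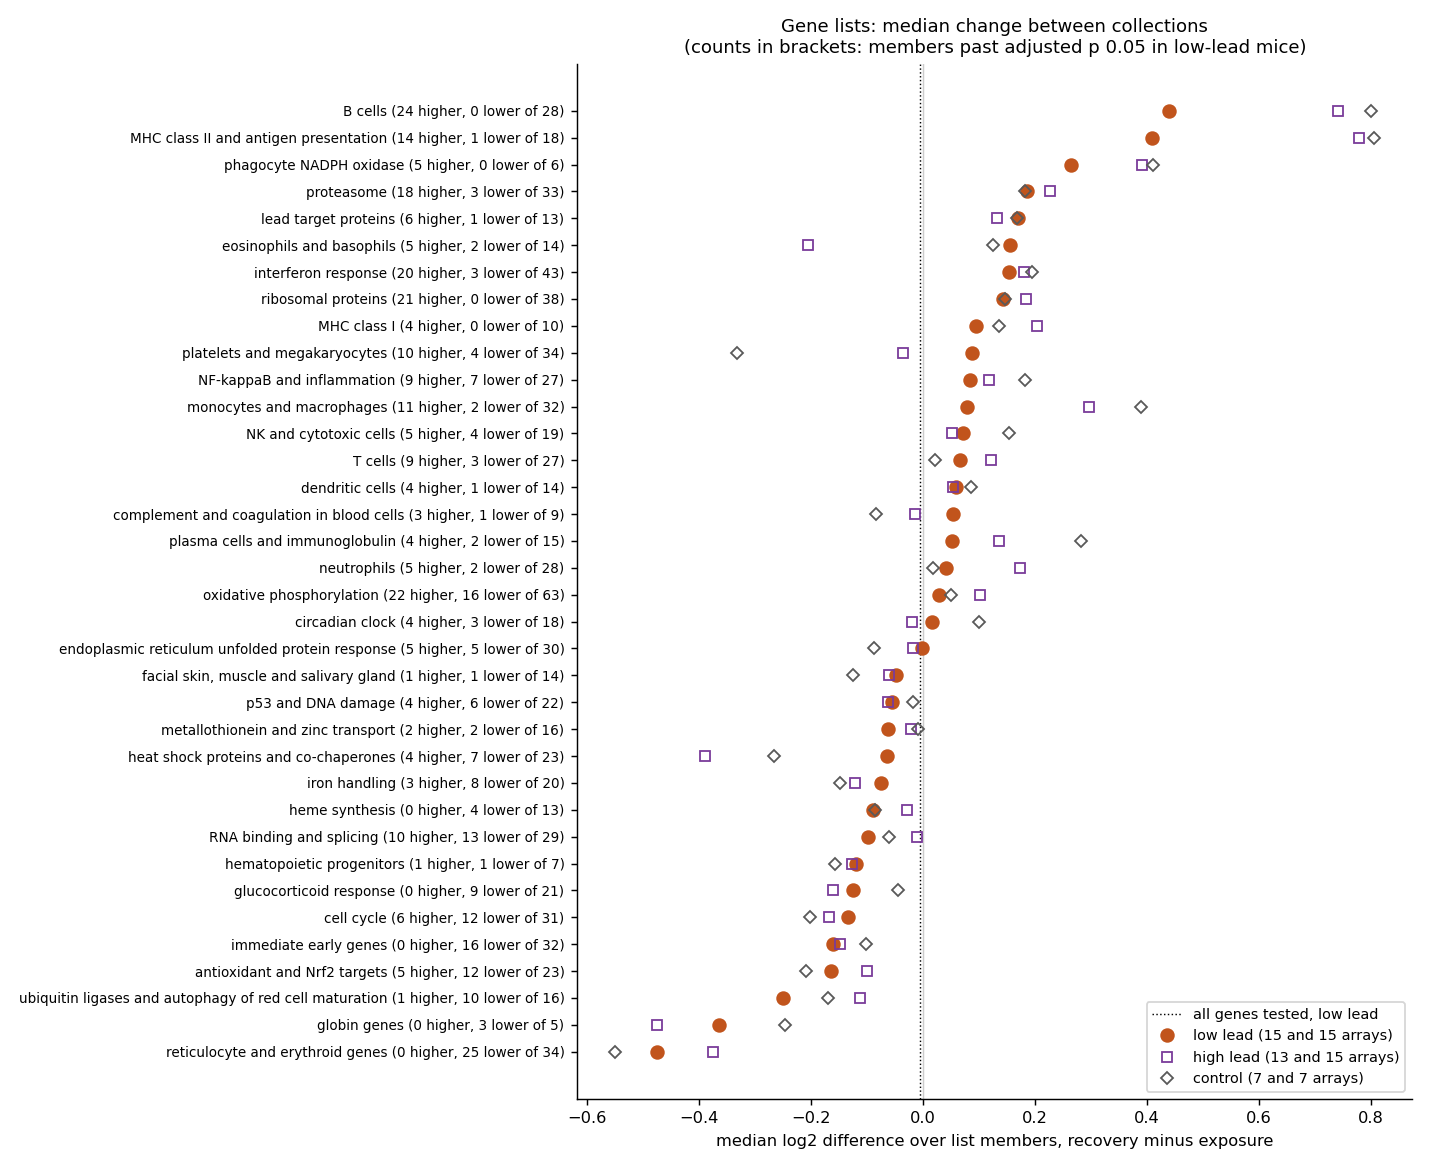
Median log2 difference over the members of each gene list, recovery minus exposure, for low-lead, high-lead and control mice, with low-lead counts of called members in brackets. B cell and MHC class II lists lie highest and globin and erythroid lists lowest in low-lead mice, and the platelet list has a median above 0 in low-lead mice and below 0 in control mice.

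B cell genes were higher after recovery. Of 28 B cell markers, 24 (85.7%) were higher and 0 lower, against 26.2% and 17.9% of all genes, with a median log2 difference of 0.44. Pax5, the B lineage transcription factor, had a lowest, median and highest signal of 5.51, 5.91 and 6.63 in recovery arrays, against 4.97, 5.18 and 5.53 in exposure arrays. In 14 of 15 recovery arrays it lay above every exposure array (fold change 1.68, 0.75 ± 0.10, limma adjusted p = 2.3e-09). Cd22, an inhibitory coreceptor of B cells, had 9.61, 10.01 and 10.38 in recovery arrays, against 8.82, 9.24 and 9.79 in exposure arrays (0.75 ± 0.11, limma adjusted p = 1.04e-07). Its groups overlapped in 3 recovery arrays. Fcmr, the receptor for IgM, rose by 0.67 and Pou2f2, the octamer-binding factor Oct-2, by 0.66 (limma adjusted p = 3.87e-06 and 2.72e-07). Ms4a1, the gene of CD20, stayed short of the threshold at 0.11, and was called at 0.40 with the 3′ minus 5′ covariates and at -0.40 with cell marker means. With those means, to which the B cell list belongs, 5 markers were higher and 6 lower.

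The mean B cell level of an array ran from 0.08 to 0.74 in recovery arrays with a median of 0.45, against -0.42 to 0.45 with a median of -0.05 in exposure arrays. In control mice all 28 markers were higher (background 22.5%), with a median of 0.80, and in high-lead mice all 28 (background 29.3%), with a median of 0.74. The exposure arrays of the control mice were widely spread on this measure, from -1.34 to 0.44. For the difference in change between low-lead and control mice the median over the list was -0.39, and 0 members were called.

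Antigen presentation genes, many of which B cells express, were higher as well. Of 18 MHC class II and antigen presentation genes, 14 (77.8%) were higher and 1 (5.56%) lower, against 26.2% and 17.9% of all genes, with a median of 0.41. With cell marker means as covariates 3 were higher and 3 lower, and H2-DMb2 was not called (limma adjusted p = 0.637). H2-Oa, a subunit of the class II peptide-loading regulator of B cells, rose by 0.66 ± 0.10, H2-DMb2, part of the peptide exchange factor, by 0.64 ± 0.12, and Rfx5, a transcription factor of class II genes, by 0.39 ± 0.07. The limma adjusted p was 3.76e-07, 7.77e-06 and 8.65e-06 for these genes. Lgmn, an endosomal protease, was the member that fell (-0.48 ± 0.08, limma adjusted p = 6.84e-07). The medians were 0.81 in control and 0.78 in high-lead mice. Of 10 MHC class I genes, 4 (40%) were higher and 0 lower, among them Tapbp (0.49), which loads peptide onto class I, and the transactivator Nlrc5 (0.27). Another probe set of Tapbp past the filter gave 0.02 (limma unadjusted p = 0.674).

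Of 32 monocyte markers, 11 (34.4%) were higher and 2 (6.25%) lower, against 26.2% and 17.9% of all genes, with a median of 0.08. The lower count was 6 after cyclic loess and 8, with as many higher, with cell marker means as covariates. Csf1r, the receptor for macrophage colony-stimulating factor, had 9.27, 9.98 and 10.51 as lowest, median and highest in recovery arrays, against 8.98, 9.17 and 9.62 in exposure arrays, and 12 of 15 recovery arrays lay above every exposure array (0.66 ± 0.08, limma adjusted p = 8.06e-10). Fn1, fibronectin, rose by 0.60 and Pld4, an endolysosomal exonuclease, by 0.46. Markers such as Itgam (0.04) and Lyz2 (0.08) did not pass. In control mice 20 members were higher and 1 lower (background 22.5% and 13.6%), with a median of 0.39. Of 6 subunits of the phagocyte NADPH oxidase, 5 (83.3%) were higher and 0 lower, and 2 were higher with 18S ribosomal RNA or with cell marker means as covariates. Cybb, its catalytic subunit gp91phox, lay between 8.66 and 9.56 in recovery arrays and between 7.90 and 8.87 in exposure arrays (0.59 ± 0.09, limma adjusted p = 1.94e-07). Another probe set of Cybb gave 0.41 and a dimmer one -0.30.

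Other leukocyte markers split in both directions. Of 27 T cell markers, 9 (33.3%) were higher and 3 (11.1%) lower, where 26.2% and 17.9% of all genes were. Foxp3, the factor of regulatory T cells, rose by 0.53 ± 0.07, and Ctla4, an inhibitory receptor of the same cells, fell by 0.38 ± 0.07 (limma adjusted p = 3.28e-08 and 2.24e-06). Both were dim, with recovery medians of 5.14 and 4.50. Of 19 NK and cytotoxic markers, 5 (26.3%) were higher and 4 (21.1%) lower, among them Ctsw, a protease of cytotoxic cells (0.46), and Klrk1, the activating receptor NKG2D (-0.29). Of 28 neutrophil markers, 5 (17.9%) were higher and 2 (7.14%) lower, with Cd177, a neutrophil surface glycoprotein, at 0.50 and the cytokine gene Il1b at -0.52. The medians of these 3 lists lay between 0.04 and 0.07 and changed sign under other scalings. With the 3′ minus 5′ covariates 1 neutrophil marker was higher and 3 lower.

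Platelet genes moved both ways. Vwf, the von Willebrand factor that tethers platelets to vessel walls, had a lowest, median and highest signal of 9.29, 9.64 and 10.49 in recovery arrays, against 8.45, 8.77 and 9.15 in exposure arrays. Every recovery array lay above every exposure array (fold change 2.02, 1.02 ± 0.10, limma adjusted p = 2.9e-12). The integrin genes Itgb3 and Itga2b, which form the fibrinogen receptor of platelets, were also higher without overlap. Another probe set of Itgb3 gave 0.00. The chosen probe set of Itgb3 ran from 9.19 to 10.16 in recovery arrays and from 8.64 to 9.13 in exposure arrays (0.72 ± 0.08, limma adjusted p = 1.27e-10). Itga2b ran from 10.85 to 11.90 in recovery arrays and from 10.37 to 10.79 in exposure arrays (0.60 ± 0.08, limma adjusted p = 8.79e-09). P2ry12, the platelet ADP receptor, fell, with 7.21, 7.86 and 8.77 as lowest, median and highest in recovery arrays against 7.49, 9.12 and 9.56 in exposure arrays. In 11 of 15 exposure arrays it lay above every recovery array (-1.05 ± 0.16, limma adjusted p = 1.04e-07).

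Of 34 platelet and megakaryocyte genes, 10 (29.4%) were higher and 4 (11.8%) lower, against 26.2% and 17.9% of all genes, with a median of 0.09. The granule chemokine genes Pf4 (0.09) and Ppbp (0.01) did not pass. In control mice 2 members were higher and 20 lower (background 22.5% and 13.6%), with a median of -0.33. In high-lead mice 7 were higher and 9 lower (background 29.3% and 19.8%), with a median of -0.04. The median difference in change between low-lead and control mice was 0.48 over the list, and 0 of its members were called in that interaction. The mean platelet level had a median of -0.06 in low-lead recovery arrays and -0.14 in low-lead exposure arrays, against -0.21 in control recovery arrays and 0.14 in control exposure arrays. With the 3′ minus 5′ covariates the low-lead count was 17 higher and 1 lower.

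**Figure D3:**
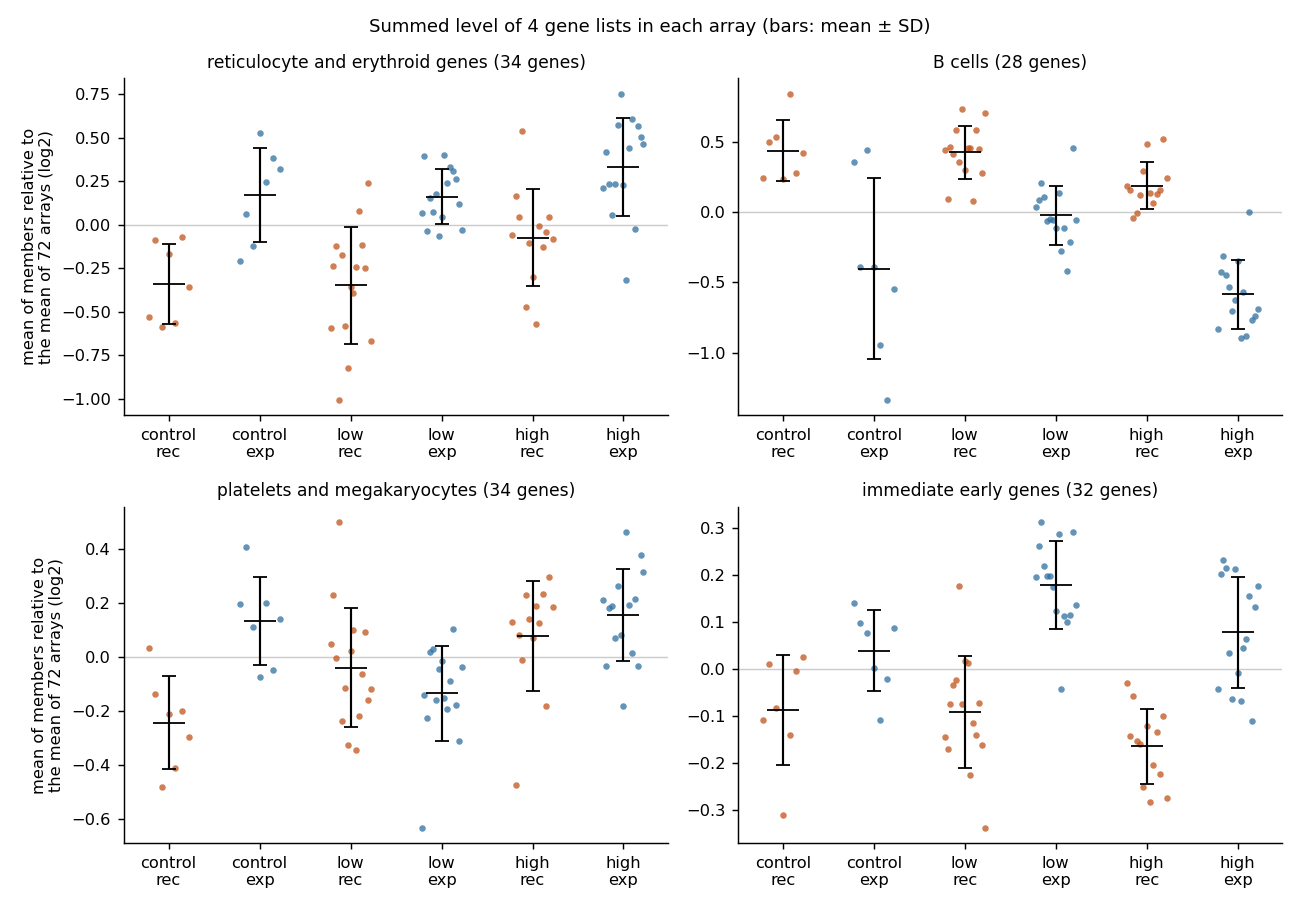
Mean of the members of 4 gene lists in each array, relative to the mean of all 72 arrays (log2), by dose and collection with recovery (rec) left of exposure (exp) and bars for the mean and SD. Erythroid and immediate early genes are lower and B cell genes higher after recovery at each dose, and the platelet list has its lowest mean in control recovery arrays.

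The 12 largest increases among genes with names lay between 0.85 and 1.07, and Vwf was one of them. Foxp1, a transcription factor of B cell and monocyte development, had 9.11, 9.56 and 10.11 as lowest, median and highest in recovery arrays, against 7.99, 8.60 and 8.86 in exposure arrays, with no overlap (1.01 ± 0.10, limma adjusted p = 2.97e-12). Of 7 further probe sets of Foxp1, all but one were also higher, by 0.18 to 0.80, and the other gave -0.06. Taf15, an RNA-binding protein of transcription complexes, rose by 1.07, the largest increase of those named, with 13 of 15 recovery arrays above every exposure array (limma adjusted p = 3.74e-11). Papola (0.92), the poly(A) polymerase, Cep97 (0.90), a centrosomal protein, Ankrd11 (0.88), a chromatin cofactor, Bms1 (0.87), a ribosome assembly GTPase, and Srrm2 (0.85) and Srpk3 (0.85), a splicing scaffold and a kinase of splicing factors, also rose. So did Chd8 (0.85), a chromatin remodeller, Trim7 (0.93), a ubiquitin ligase, and Phxr4 (0.87). Each of these 9 had a limma adjusted p of 1.05e-06 or less. Probe sets of 1 gene did not always agree here. Of 25 further probe sets of 8 of these 12 genes, 15 were higher with an unadjusted limma p under 0.05, 2 were lower and 8 did not pass. Of the 6 further probe sets of Ankrd11, 1 was higher (0.27) and 5 did not pass. Of the 3 of Cep97, 1 was higher (0.43) and 2 lower (-0.19 and -0.16).

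RNA-binding and splicing genes moved both ways, 10 higher (34.5%) and 13 lower (44.8%) of 29, against 26.2% and 17.9% of all genes. The lower count was 4 with the 3′ minus 5′ covariates, and the list's median of -0.10 turned to 0.06 with them and to 0.09 with the probe set of largest interquartile range. Hnrnpa1, a splicing repressor, rose by 0.47 ± 0.07. The brightest probe set of Son, a nuclear speckle scaffold, gave 0.72 ± 0.09 (limma adjusted p = 3.56e-09). Of 6 further Son probe sets past the filter, 1 was higher (0.31), 4 were lower (-0.39 to -0.18) and 1 gave -0.01, so the gene has no settled direction here. Clk1, a kinase of splicing factors, fell by 0.62 ± 0.10 and Cpsf6, a cleavage factor subunit, by 0.63 ± 0.10. Cirbp, a cold-inducible RNA-binding protein, rose by 0.51 ± 0.14 (6.41 to 7.52 in recovery arrays against 5.98 to 6.90 in exposure arrays, limma adjusted p = 0.00168), a call lost with cell marker means as covariates (limma adjusted p = 0.843), and by 1.21 in control and 0.93 in high-lead mice.

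Ribosomal protein and proteasome genes were more often higher than lower, where 26.2% of all genes were higher and 17.9% lower. Of 38 ribosomal protein genes, 21 (55.3%) were higher and 0 lower, with a median of 0.14, and Rpsa, a small subunit protein, had the largest increase of those named (0.38 ± 0.08, limma adjusted p = 3.63e-05). Of 33 proteasome genes, 18 (54.5%) were higher and 3 (9.09%) lower, with a median of 0.19, and the lower count was 6 after cyclic loess. With cell marker means as covariates the counts were 13 higher and 4 lower for ribosomal proteins and 11 higher and 5 lower for the proteasome. Psmc4, an ATPase of the proteasome cap, rose by 0.59 ± 0.09 and Psmc2, another, by 0.45 ± 0.06 (limma adjusted p = 4.14e-07 and 2.3e-08). Of 43 interferon-response genes, 20 (46.5%) were higher and 3 (6.98%) lower, with a median of 0.15. Ifi35, an interferon-induced leucine zipper protein, rose by 0.55 ± 0.07 and Parp14, an ADP-ribosyltransferase, by 0.45 ± 0.07 (limma adjusted p = 7.46e-09 and 1.95e-07). After cyclic loess the interferon list stood at 14 higher and 11 lower, and with 18S ribosomal RNA as a covariate at 12 higher and 8 lower.

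Inflammation and stress genes were mixed. Of 27 NF-kappaB and inflammation genes, 9 (33.3%) were higher and 7 (25.9%) lower, against 26.2% and 17.9% of all genes. Traf1, an adaptor of TNF receptors, rose by 0.68 ± 0.08 with 14 of 15 recovery arrays above every exposure array, and Tnfaip3, the A20 inhibitor of NF-kappaB, fell by 0.34 ± 0.05 (limma adjusted p = 9.04e-11 and 4.24e-07). Of 22 p53 and DNA damage genes, 4 (18.2%) were higher and 6 (27.3%) lower, or 2 and 10 after cyclic loess. Gadd45a, a growth arrest gene of the stress response, ran from 6.70 to 7.96 in recovery arrays and from 8.03 to 8.75 in exposure arrays, with no overlap (-0.95 ± 0.11, limma adjusted p = 1.15e-10). Of 31 cell cycle genes, 6 (19.4%) were higher and 12 (38.7%) lower, or 6 and 5 with cell marker means as covariates. Nusap1, a spindle protein, fell by 1.13 and Ube2c, the ubiquitin-conjugating enzyme of mitotic exit, by 0.97, while the replication helicase subunit Mcm5 rose by 0.41 (limma adjusted p = 3.45e-07, 5.04e-07 and 8.98e-07).

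Most of the low-lead changes had a counterpart in control mice, which never received lead. In control mice 4543 genes (36.1%) differed between recovery and exposure, 2833 higher and 1710 lower. Of the 3300 genes higher in low-lead mice, 2418 were also called higher in control mice, which is 73.3% of the low-lead and 85.4% of the control calls. Of the 2251 lower genes, 1084 were also called lower in control mice (48.2% of the low-lead and 63.4% of the control calls), and 5 genes were called in opposite directions. The log2 differences of low-lead and control mice, which share no arrays but share the collections and the array platform, had a Pearson r of 0.84 and a Spearman rho of 0.84 over the 12588 genes, which are not independent of each other. In high-lead mice 6189 genes (49.2%) differed, 2939 of the low-lead higher calls and 1545 of the lower calls were shared, and 1 gene was called oppositely. The groups differ in size, with 7 control arrays a collection, so a gene called in low-lead mice alone is not thereby shown to differ.

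**Figure D4:**
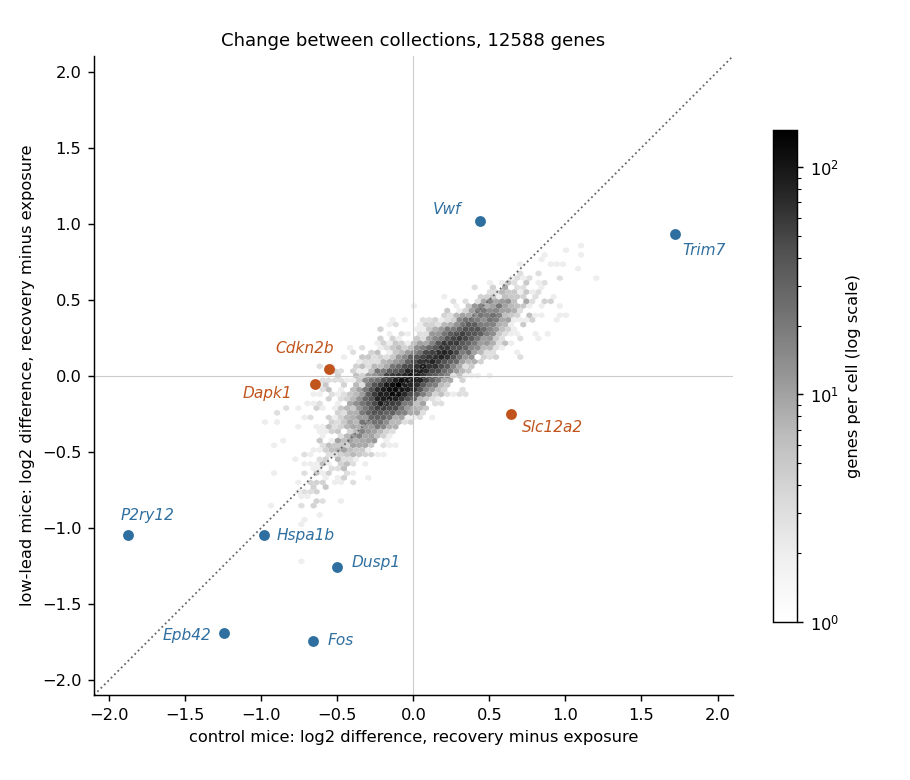
Log2 difference between recovery and exposure in low-lead mice (vertical) against that in control mice (horizontal), with shading for the number of genes and a dotted line of equal change. Most of the 12588 genes lie along the line, and the 3 genes called in the interaction are marked in orange, with Slc12a2 falling in low-lead and rising in control mice.

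The change itself was compared between doses by interaction. The change from exposure to recovery differed between low-lead and control mice for 3 of 12588 genes (0.0238%), 2 with a positive (0.0159%) and 1 with a negative difference (0.00794%), and 1064 genes (8.45%) had an unadjusted p under 0.05. The count of 3 depended on the processing. It was 716 with array weights, 78 after quantile normalization, 45 after cyclic loess, 14 to 19 with the stricter filter or with 18S ribosomal RNA or the 3′ minus 5′ differences as covariates, and 0 with cell marker means. Slc12a2, the sodium, potassium and chloride cotransporter NKCC1 that regulates cell volume, had 5.90, 6.17 and 6.63 as lowest, median and highest in low-lead recovery arrays and 6.28, 6.49 and 6.71 in low-lead exposure arrays, against 5.85, 6.47 and 6.85 in control recovery arrays and 5.42, 5.72 and 6.06 in control exposure arrays. It was lower after recovery in low-lead mice (-0.25, limma adjusted p = 0.0113) and higher in control mice (0.64, limma adjusted p = 3.09e-05), a difference of -0.90 ± 0.15 (limma interaction, adjusted p = 0.000829). With the 3′ minus 5′ covariates the low-lead decrease was no longer called (limma adjusted p = 0.422). The control exposure arrays were the lowest of the 4 groups. Other probe sets of Slc12a2 did not pass the filter. They gave differences in change of -0.35 and -0.13 (limma unadjusted p = 0.0323 and 0.468), and the latter rose in low-lead mice, by 0.26 (limma unadjusted p = 0.0102).

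Dapk1, a calmodulin-dependent kinase of cell death, had medians of 6.17 in low-lead recovery arrays and 6.21 in low-lead exposure arrays, against 5.88 in control recovery arrays and 6.51 in control exposure arrays. The low-lead groups overlapped in 13 of 15 recovery arrays and the control groups did not overlap (5.59 to 6.13 after recovery, 6.37 to 6.72 after exposure). The difference in change was 0.60 ± 0.12 (limma interaction, adjusted p = 0.0149), and a dimmer probe set gave 0.43. Cdkn2b, the cell cycle inhibitor p15, had medians of 4.47 in low-lead recovery arrays and 4.49 in low-lead exposure arrays, against 4.24 in control recovery arrays and 4.81 in control exposure arrays (0.60 ± 0.12, limma interaction, adjusted p = 0.0217). Neither gene changed past the threshold in low-lead mice (limma adjusted p = 0.542 and 0.616), and both fell in control mice. Next in order were Trpc1, a cation channel subunit, and Hfe, which controls iron uptake (both limma adjusted p = 0.0514). Single arrays left out aside, Trpc1 passed in 5 alternatives (limma adjusted p = 0.00478 to 0.0493) and Hfe in 6 (0.00187 to 0.0493). With means of the cell marker lists as covariates 0 genes were called, at a limma adjusted p of 0.668 for Slc12a2, 0.985 for Dapk1 and 0.678 for Cdkn2b. Single arrays moved the count further. It was 33, 1, 52, 36 and 5 without control exposure replicates 1, 2, 3, 4 and 7, and 133, 5, 1, 26 and 1 without control recovery replicates 1 to 5. It was 12, 5 and 24 without low-lead exposure replicates 8, 11 and 12, and 14, 22, 44 and 66 without low-lead recovery replicates 5, 6, 7 and 10. Slc12a2 was called whichever control or low-lead array was left out. Dapk1 missed the threshold without control exposure replicate 2 or control recovery replicates 3 or 5 (limma adjusted p up to 0.0671), and Cdkn2b without control exposure replicates 2 or 6 or control recovery replicates 3, 5, 6 or 7 (up to 0.0941).

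Heat shock genes changed by different amounts at the 2 lead doses. The change differed between low-lead and high-lead mice for 8 genes (0.0636%), all with a less negative change in low-lead mice, and 554 genes (4.40%) had an unadjusted p under 0.05. All but Slc5a3, a myo-inositol transporter, were chaperones or co-chaperones. Hspa1b had 2.74, 3.23 and 3.55 as lowest, median and highest in low-lead recovery arrays and 3.48, 4.13 and 5.15 in low-lead exposure arrays, against 3.04, 3.30 and 3.67 in high-lead recovery arrays and 5.04, 5.93 and 7.60 in high-lead exposure arrays. It fell by 1.05 ± 0.16 in low-lead mice (limma adjusted p = 1.33e-07) and changed by -2.78 in high-lead mice, a difference of 1.73 ± 0.23 (limma interaction, adjusted p = 7.13e-07). Every recovery array of both doses lay under the filter level of 4.14, as did the median low-lead exposure array, so these differences are set against dim signals and their size is uncertain. In control mice Hspa1b changed by -0.98.

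The other 7 differed by less. Hsph1, the Hsp110 nucleotide exchange factor, did not change past the threshold in low-lead mice (-0.06, limma adjusted p = 0.606) and fell by 0.95 in high-lead mice, a difference of 0.89 ± 0.14 (limma interaction, adjusted p = 5.28e-05). Another probe set of Hsph1 fell in low-lead mice, by -0.51 (limma adjusted p = 0.000125 when it represented the gene). Its difference between the doses was 1.07 (limma unadjusted p = 1.18e-08). Slc5a3 changed by -0.48 in low-lead mice and by -1.27 in high-lead mice, and Dnaja1, an Hsp40 co-chaperone, by -0.35 in low-lead and -1.04 in high-lead mice. The differences were 0.80 and 0.69 (limma interaction, adjusted p = 0.000397 and 0.000734). Stip1 (0.64), which links Hsp70 to Hsp90, Chordc1 (0.51), an Hsp90 cofactor, Hsp90aa1 (0.46), the inducible Hsp90, and Hspd1 (0.44), the mitochondrial chaperonin, did not pass in low-lead mice and fell in high-lead mice. Another probe set of Hsp90aa1, at a mean level of 7.86, fell in low-lead mice, by -0.52 (limma unadjusted p = 1.25e-08). Its difference between the doses was 0.52 (limma unadjusted p = 3.41e-05). Further Hsp90aa1 probe sets past the filter gave differences of 0.41 and 0.06 (limma unadjusted p = 0.0428 and 0.573). Chordc1, Hsp90aa1 and Hspd1 were called in low-lead mice after cyclic loess. The low-lead call of Dnaja1 was lost with the 3′ minus 5′ covariates (limma adjusted p = 0.0995). The Hspd1 difference missed the threshold after centring (limma adjusted p = 0.274) and without any one of 13 arrays (limma adjusted p up to 0.0737). Dnajb1, another Hsp40, fell by 0.30 ± 0.09 in low-lead mice (limma adjusted p = 0.00534), a call lost with the 3′ minus 5′ covariates (limma adjusted p = 0.233). Of 23 heat shock genes, 4 (17.4%) were higher and 7 (30.4%) lower in low-lead mice with a median of -0.06 (background 26.2% and 17.9%). In high-lead mice 2 were higher and 17 lower with a median of -0.39 (background 29.3% and 19.8%). In control mice 2 were higher and 13 lower with a median of -0.27 (background 22.5% and 13.6%). The low-lead median was -0.30, with 13 genes lower, when the probe set of largest interquartile range represented each gene, and 0.03, with 3 lower, with the 3′ minus 5′ covariates.

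**Figure D5:**
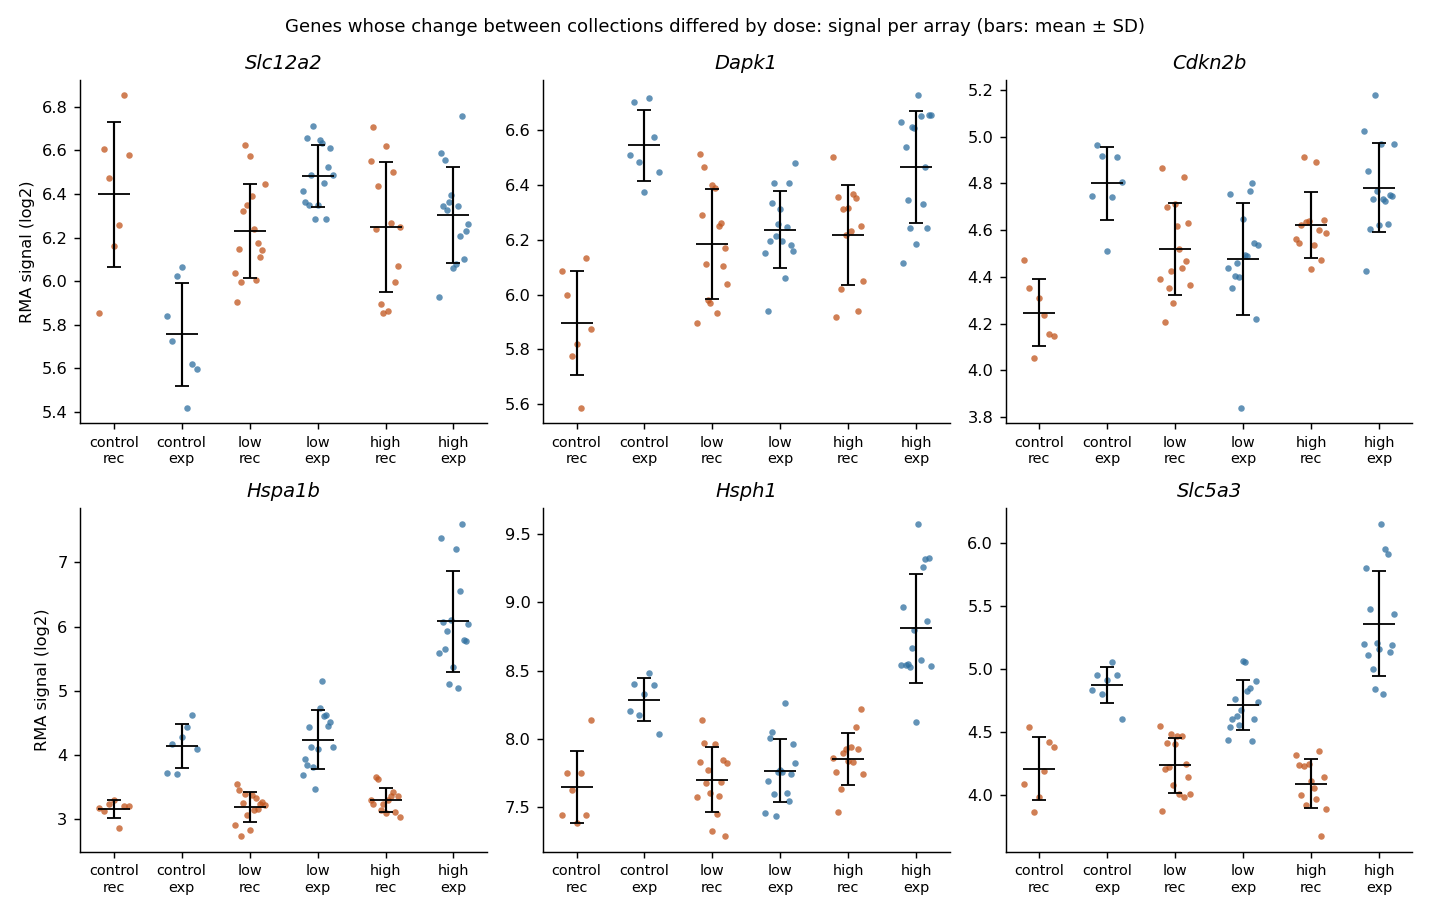
RMA signal (log2) of 6 genes in each array of the 6 groups, recovery (rec) left of exposure (exp) at each dose, with bars for the mean and SD. The control exposure arrays are lowest for Slc12a2 and control recovery arrays lowest for Dapk1 and Cdkn2b, while Hspa1b, Hsph1 and Slc5a3 are highest in the high-lead exposure arrays.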

How the data were processed

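The deposited values were log2 signals of 72 oligonucleotide arrays. Per the submitters' processing notes, the authors summarised them with RMA, and its software and version were not given in the sources used here. Values ran from 0.41 to 14.14 and array medians from 4.05 to 4.22, and 0 value columns were left unused. No counts or depth exist for arrays, and their number limits the precision. Of 45101 probe sets, 34945 had exactly 1 gene symbol in the platform annotation, 932 had several, 9160 were not listed there and 64 were array controls. Of the tested genes, 12523 were matched to RefSeq by gene ID and 0 symbols differed.

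Probe sets entered the test if at least 7 arrays exceeded 4.14, the median over the whole table, and each gene was represented by its probe set of highest mean. Group means of all 72 arrays were fitted with limma 3.58.1 (R 4.3.3, statmod 1.5.0), with 66 residual degrees of freedom and Benjamini-Hochberg adjustment over the 12588 genes at 0.05. Interactions compared the change between doses. Array measures were compared by permutation with 1e+05 resamples (Python 3.11.15, SciPy 1.17.1). The fit was tested on simulated data. Samples were grouped by title, in the 6 groups of dose and collection.

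The 36 gene lists and the members were chosen with earlier results of these data known. Named genes were the 12 highest and 12 lowest called differences, leaving out clone names and gene models, up to 4 members of smallest p of each list, a set of heat shock, immediate early, heme and lead-related genes whatever their result, and up to 5 genes in each direction for each interaction, or the 5 of smallest p. Further list members that are named without passing the threshold, Ms4a1, Itgam, Lyz2, Pf4, Ppbp, Egr1, Nr4a1, Ier2, Gata1 and Tal1, were chosen after their values were seen. Same-numbered low-lead arrays were compared for pairing, and the numbers were not taken to pair the samples. Alternatives covered normalization, filters, probe set choice, covariates, array weights, replicate blocks and single arrays.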

Additional observations from a re-analysis of the deposited data

Results flagged for a closer look

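The change from exposure to recovery differed between low-lead and control mice for 3 genes, tested as an interaction in limma. Slc12a2 had a difference of -0.90 ± 0.15 by its only probe set past the filter, falling in low-lead and rising in control mice. Dapk1 differed by 0.60 ± 0.12 and Cdkn2b by 0.60 ± 0.12, both with a fall in control mice and no call in low-lead mice.

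The change differed between low-lead and high-lead mice for 8 genes by the same test. The differences were 1.73 for Hspa1b, 0.89 for Hsph1, 0.80 for Slc5a3, 0.69 for Dnaja1, 0.64 for Stip1, 0.51 for Chordc1, 0.46 for Hsp90aa1 and 0.44 for Hspd1, each a smaller decrease, or none past the threshold, in low-lead mice. For Hspa1b every recovery array of both doses, 2.74 to 3.67, lay under the filter level of 4.14, so the size of its difference is uncertain. Another probe set of Hsph1 and of Hsp90aa1 did fall in low-lead mice. These probe sets also changed less than in high-lead mice, with differences of 1.07 and 0.52 (limma unadjusted p = 1.18e-08 and 3.41e-05). Another dim probe set of Hspa1b gave 1.82, and the dimmest of Hsp90aa1 past the filter 0.06 (limma unadjusted p = 1.4e-10 and 0.573). In the low-lead against control interaction, Slc12a2 kept its call whichever control array was left out. Dapk1 and Cdkn2b lost theirs without certain single control arrays (limma adjusted p up to 0.0671 and 0.0941).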

How the results depend on the processing

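The count of genes that differed between recovery and exposure in low-lead mice stayed within 1.5 times the reported 5551 in every alternative run, between 3889 with a stricter filter (above 6 in at least 15 arrays) and 6621 with array weights. The stricter filter tests fewer genes, and left 1378 lower genes in low-lead mice and 4078 calls in high-lead mice. Cell marker means as covariates left 1595 calls in control and 4104 in high-lead mice, and moved the genes called at 1.5-fold or more to 135, against 660 with the probe set of largest interquartile range. Leaving out 1 array at a time gave 5074 to 5832 calls in low-lead mice (3019 to 3485 higher, 2020 to 2347 lower), 3790 to 5148 in control and 5599 to 6590 in high-lead mice.

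The low-lead against control interaction was the least stable. It counted 716 genes with array weights, 78 after quantile normalization, 45 after cyclic loess, 19 with the 3′ minus 5′ covariates, 18 with the stricter filter, 14 with 18S ribosomal RNA as a covariate and 0 with cell marker means, and 1 to 133 when 1 array was left out. With 0 calls under cell marker means, the cause was not tested. The low-lead against high-lead interaction counted 15 genes with array weights, 30 with cell marker means and 7 to 9 when 1 array was left out. Alad turned to 0.31 with cell marker means as covariates, and Fech to -0.81 with the probe set of largest interquartile range. Of the 161 called genes among the 191 examined singly, 36 lost the call with cell marker means, 20 with the 3′ minus 5′ covariates, 10 with 18S ribosomal RNA and 7 with the probe set of largest interquartile range, and 0 to 3 in each of the other alternatives. None was called in the opposite direction. Of the values of the 12 genes at each end, the genes fixed by name and the interaction genes under the alternatives, single arrays left out included, 2694 kept their direction and side of the threshold, 34 lost their call and 56 gained one.

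Whether equal numbers mark 1 low-lead mouse was not settled. Correlations of same-numbered low-lead arrays ran from -0.30 to 0.51 with a mean of 0.09, against a mean of -0.007 for different numbers. Of the 15, 7 were over 0.1, and 3 arrays correlated best with their own number. Weak correlations cannot show that equal numbers mark different mice. With a replicate block the count was 5638 in low-lead mice, and 5790 with a random block, 3523 in control and 5749 in high-lead mice with a block. The number of arrays and signals close to background or to the highest value limit what small differences show.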

Other observations

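Oxidative phosphorylation genes, which encode the respiratory chain, moved both ways in low-lead mice, with 22 of 63 (34.9%) higher and 16 (25.4%) lower, where 26.2% and 17.9% of all genes were. With the 3′ minus 5′ covariates 5 were lower. Ndufv1, a complex I subunit, rose by 0.64 and Atp5d, an ATP synthase subunit, by 0.49, while Cox6c, a cytochrome oxidase subunit, fell by 0.42 with 14 of 15 recovery arrays below every exposure array (limma adjusted p = 1.79e-08, 5.68e-09 and 1.17e-08). Of 30 genes of the endoplasmic reticulum unfolded protein response, 5 were higher and 5 lower (16.7% each). Ppp1r15a, which restores translation after stress, fell by 0.67 and Dnajb9, a chaperone of the endoplasmic reticulum, by 0.40, while Xbp1, a transcription factor of the response, rose by 0.31. Of 3 further probe sets of Xbp1, 2 were higher and 1 lower (-0.14). The call of Dnajb9 was lost with the 3′ minus 5′ covariates, and those of Ppp1r15a and Xbp1 with cell marker means. The list stood at 11 lower after quantile normalization or cyclic loess. The medians of both lists changed sign under other scalings.

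Among all genes 26.2% were higher and 17.9% lower, the shares to set beside the counts that follow. Of 18 circadian clock genes, 4 (22.2%) were higher and 3 (16.7%) lower. Nr1d2, a repressor of the clock, stood at -0.54 and Per2 at 0.22, both calls lost with the 3′ minus 5′ covariates. Of 14 eosinophil and basophil markers, 5 (35.7%) were higher and 2 (14.3%) lower. Among them were Mcpt8, a basophil protease, at 0.38, a call lost with array weights or 18S ribosomal RNA as a covariate, and Ccr3, the eotaxin receptor, at -0.67. Of 15 plasma cell and immunoglobulin genes, 4 (26.7%) were higher and 2 (13.3%) lower, close to the shares of all genes. Ighm, the IgM heavy chain, stood at 0.44, although 5 of its 6 further probe sets did not pass. Of 14 dendritic cell markers, 4 (28.6%) were higher and 1 (7.14%) lower, with the transcription factor gene Irf8 at 0.42. Ighm and Irf8 were not called with cell marker means as covariates. Of 9 complement and coagulation genes of blood cells, 3 (33.3%) were higher, among them Cfp, properdin, at 0.30. Only Thbd, thrombomodulin, was lower (11.1%), at -0.43. Of 14 marker genes of tissues near the bleeding site (skin, muscle and salivary gland), Tnni2 (0.29) was higher and Krt77 (-0.17) lower (7.14% each), both at dim signal. Of 7 progenitor genes, Cdk6 (0.33) was higher and Myb (-0.24) lower (14.3% each). Of 2 further probe sets of Cdk6, 1 was higher (0.19) and 1 lower (-0.17). The call of Cdk6 was lost with the probe set of largest interquartile range (limma adjusted p = 0.0802).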
